A study of Argopecten irradians with 2 samples.

Results

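The very long unigenes of the bay scallop (Argopecten irradians) gill transcriptome were examined. A unigene is a transcript sequence assembled from the sequencing reads without a reference genome. All unigenes of at least 10000 bp were taken, except contigs of assembly clusters of 8 or more contigs. This gave 90 of 59688 unigenes, or 0.151% of them. Their lengths ran from 10002 to 33781 bp, with a median of 11697 bp. They comprised 39 singletons, which stand alone in the assembly, and 51 contigs of 35 clusters, which group similar sequences. The rule used only length and cluster size, and no expression value. The lengths come from an assembly of the reads of these same libraries, however. Whether a unigene reached 10000 bp may thus depend on its read depth in them, which was not tested.

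Gill RNA came from scallops exposed for 48 h to 500 nM okadaic acid (OA), and from control scallops that received the same volume of the DMSO vehicle. Each library is described by the submitters as a pool of 18 animals, and 1 library per group was sequenced. The OA-exposed library held 11607306 and the control library 11522064 fragments counted on unigenes. With 1 library per group there is no spread between replicates, so the differences below describe 2 libraries, and an effect of OA cannot be told apart from a difference between 2 pools, RNA preparations or libraries.

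Okadaic acid is a polyether toxin of marine dinoflagellates that inhibits serine/threonine protein phosphatases and accumulates in filter-feeding bivalves. The bivalve gill is a ciliated epithelium that pumps water and sorts food, and it meets dissolved toxins directly. In animals, mRNAs of extreme length commonly encode giant proteins, such as the dynein heavy chains that drive cilia, the titin-like proteins of muscle and the spectrins of the membrane skeleton, or they carry long untranslated regions. Assembly can also join neighbouring transcripts into 1 sequence. The files give assembly identifiers without gene names or sequences, so which protein a given unigene encodes is not stated here, and no cell type marker of gill could be checked.

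Most very long unigenes were more abundant in the OA-exposed library. Abundance is given as FPKM, the number of fragments scaled to the length of the unigene and to the mapped fragments of the library. The median over the 90 unigenes was 7.47 FPKM in the OA-exposed library and 3.57 FPKM in the control library. In the OA-exposed library the values ran from 0 to 188.8 FPKM, and in the control library from 0.03 to 144.6 FPKM. In pooled gill, more RNA per cell and more cells of a type that carries these transcripts cannot be told apart. The plot of FPKM by unigene shows the OA value above the control value over nearly the whole range of abundance.

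**Figure D1:**
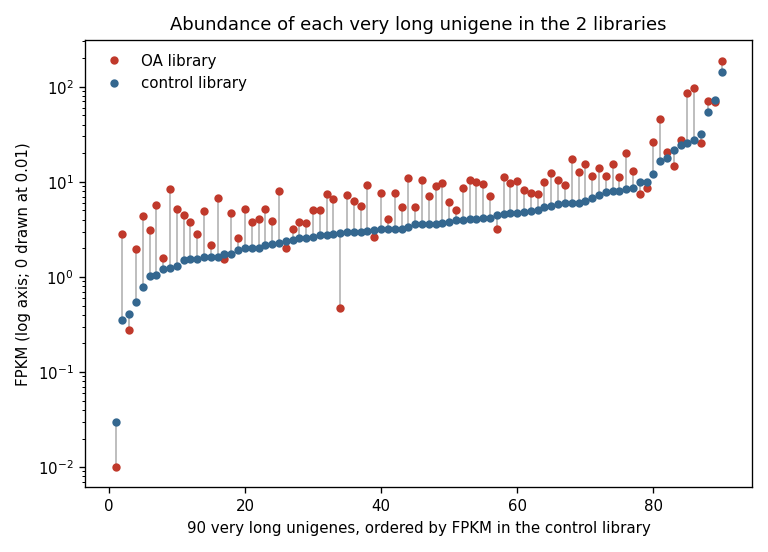
FPKM of each of the 90 very long unigenes in the OA-exposed library (red) and the control library (blue), on a log axis, with the unigenes ordered by their control value and a line joining the 2 values of 1 unigene. The red point lies above the blue one for 78 unigenes, and the unigene at the far left, with 0.03 FPKM in the control library, was listed at no fragment in the OA-exposed library.

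The ratio of FPKM, OA over control, was compared for unigenes with at least 10 fragments in the libraries together, which 89 of the 90 passed. The median log2 ratio was 0.98, with quartiles of 0.52 and 1.37, against a median of 0.11 with quartiles of -0.58 and 0.76 over all 36619 unigenes with this depth. A log2 ratio of 1 is a 2-fold difference. A ratio above 1 was found for 78 of the 89 (87.6%), against 54.5% of all unigenes. A value at least 2-fold higher in the OA-exposed library was found for 42 of the 89 (47.2%), against 18.6% of all unigenes. A value at least 2-fold lower was found for 1 of them, against 15.5% of all. A further 20 were between 1.5-fold and 2-fold higher, 26 lay within 1.5-fold of equality, and 5 were at least 4-fold higher.

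Long unigenes collect more fragments, so the depth behind these ratios was above that of the typical unigene. At least 200 fragments were counted for 86 of the 90 in the OA-exposed library and for 78 in the control library, and 88 reached 200 in the libraries together. Among all 11025 unigenes with at least 200 fragments, the median log2 ratio was 0.21, 15.2% were at least 2-fold higher and 8.26% at least 2-fold lower in the OA-exposed library. The 88 very long unigenes of this depth had a median of 0.98, with 42 higher and 1 lower by at least 2-fold. The medians of the very long unigenes and of the whole set thus differed by 0.77 at this depth, and by 0.86 with the minimum of 10 fragments.

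Counting error was small beside the ratios. The exact conditional binomial 95% interval of the ratio of fragments, which covers counting error only, lay wholly above equality for 78 of the 89 and wholly below it for 9, and held equality for 2. It lay wholly above 2-fold for 36 and held 2-fold for 15, so that which unigenes pass the 2-fold limit is uncertain for those 15. In the Poisson test of Audic and Claverie used in the study, with a false discovery rate of 0.001 over 59676 unigenes and the 2-fold limit, the same numbers of 42 higher and 1 lower were called, against 5.36% higher and 4.38% lower of all unigenes tested. At matched minimum depth the contrast was smaller, since of the 11025 unigenes with at least 200 fragments the test called 1681 higher (15.2%) and 911 lower (8.26%). The 2-fold limit alone gives these same numbers, so at this depth the test added nothing to the fold limit. This test compares the reads of the libraries and not the conditions. When a coefficient of variation of 0.1 between pools was assumed in edgeR's exact test, 42 higher calls and 1 lower call were left. With 0.2, 6 higher calls and 1 lower call were left, and with 0.4, 0 of each were left. No share over all unigenes is given for these settings. The counts thus show only how far the calls depend on the assumed variation.

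Among well-covered unigenes the ratio differed with length, and the very long unigenes stood at its upper end. Among unigenes with at least 200 fragments, the median log2 ratio was -0.56 for the 781 of 300 to 1000 bp, -0.03 for the 2752 of 1000 to 2000 bp and 0.18 for the 3053 of 2000 to 3000 bp. It was 0.35 for the 3120 of 3000 to 5000 bp, 0.54 for the 1066 of 5000 to 8000 bp and 0.77 for the 141 of 8000 to 10000 bp. Each class includes its lower bound only. The 20 unigenes of 200 to 300 bp departed from this order with a median of 0.70. With the minimum of 10 fragments the medians of the short classes were above those of the next, at 0.29 for 200 to 300 bp and 0.12 for 300 to 1000 bp, against -0.07 for 1000 to 2000 bp and 0.07 for 2000 to 3000 bp, so that the order by length began at 1000 bp. From 3000 bp they were close to those above, at 0.31, 0.54 and 0.78 for the same 3 classes. The limit of 10000 bp marks no step in the ratios.

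**Figure D2:**
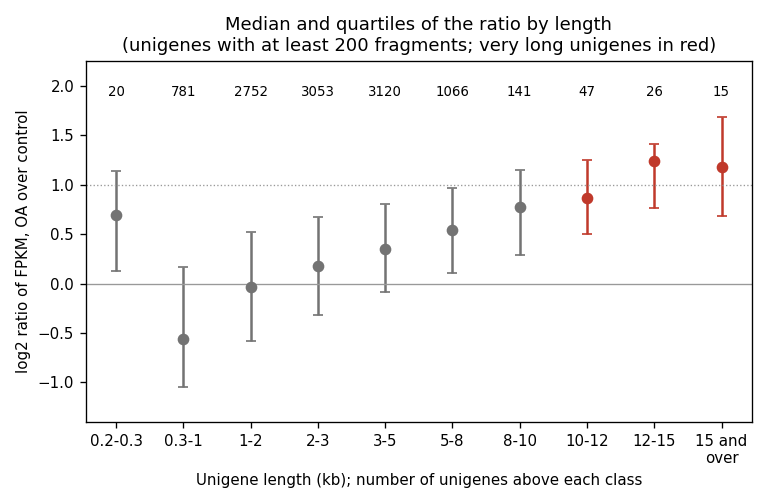
Median log2 ratio of FPKM, OA over control, by unigene length in kb for unigenes with at least 200 fragments; bars span the quartiles, the number of unigenes stands above each class, and the dotted line is 2-fold. From 0.3 kb upward the medians climb through the shorter unigenes (grey) and reach 0.86, 1.24 and 1.18 in the 3 classes of very long unigenes (red).

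The same was seen at matched abundance. Of the very long unigenes with at least 10 fragments, the 40 with a mean FPKM under 5 had a median log2 ratio of 0.91, against 0.07 for all unigenes of that abundance and -0.08 for those of 1000 to 3000 bp. With at least 200 fragments these 3 medians were 0.91, 0.28 and 0.08. The 32 of 5 to 10 FPKM had a median of 1.09, against 0.22 for all and 0.11 for those of 1000 to 3000 bp. For the 9 of 10 to 20 FPKM it was 0.95, against 0.23 for all and 0.09 for those of 1000 to 3000 bp. For the 8 of at least 20 FPKM it was 0.39, against 0.07 for all and -0.01 for those of 1000 to 3000 bp. The most abundant very long unigenes thus had the lowest median of the 4 classes, in a class of few members. No test of these differences was made, since unigenes are not replicates of a condition.

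Within the very long unigenes, length and ratio were only loosely related. The 47 of 10000 to 12000 bp had a median log2 ratio of 0.86 and 17 of them were at least 2-fold higher. Of the 26 of 12000 to 15000 bp, with a median of 1.24, 17 were at least 2-fold higher, and of the 16 of 15000 bp and over with at least 10 fragments, with a median of 1.08, 8 were. Across the 89 unigenes, which share 2 libraries and are not independent, Spearman's rho between length and log2 ratio was 0.22 and Pearson's r was 0.07. The 2 lengths just inside the limit were 10002 bp, with 20.5 FPKM in the OA-exposed and 17.8 FPKM in the control library, and 10018 bp, with 13.0 and 8.71 FPKM in the same order. Just outside it, the unigene of 9998 bp had 7.04 FPKM in the OA-exposed and 4.03 FPKM in the control library, and that of 9953 bp had 14.3 and 3.42 FPKM.

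**Figure D3:**
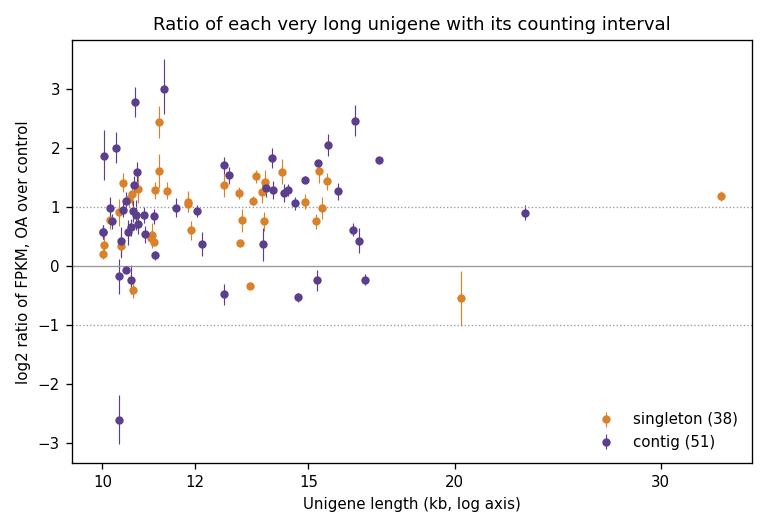
Log2 ratio of FPKM, OA over control, against length in kb (log axis) for the 89 very long unigenes with at least 10 fragments; bars are exact 95% counting intervals, and dotted lines mark 2-fold in either direction. Of the 89, 42 lie at or above the upper dotted line and 1 lies below the lower one.

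The FPKM divides by an effective length that is slightly shorter than the unigene. From the deposited values it was estimated as shorter by 57.4 bp in the OA-exposed library and by 52.9 bp in the control library. Ratios of fragments scaled to the library total alone, which use no length, gave a median log2 ratio of 0.97 for the very long unigenes, so the length correction moved it by little.

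The 90 unigenes make up 1.66% of the assembled bases. They took 1.61% of the fragments of the OA-exposed library (exact binomial 95% interval 1.61% to 1.62%) and 0.933% of those of the control library (0.928% to 0.939%), a ratio of 1.73. The intervals leave out all error but that of counting, as reads of amplified libraries are not independent molecules. A few unigenes carried much of this. The 3 with the most fragments in a library held 33.8% of the fragments on very long unigenes in the OA-exposed library and 34.9% in the control library. Without the 3 that were highest over both libraries, the ratio of the shares was 1.63.

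The most abundant of the very long unigenes was the same in both libraries, a singleton of 13109 bp. It had 188.8 FPKM (28672 fragments) in the OA-exposed library and 144.6 FPKM (21835 fragments) in the control library, a 1.31-fold higher value (log2 ratio 0.38, interval 0.36 to 0.41). The next highest in the OA-exposed library were 2 contigs of 1 cluster, which had larger ratios. The contig of 17246 bp had 96.1 FPKM in the OA-exposed and 27.6 FPKM in the control library (log2 ratio 1.80, interval 1.75 to 1.84). Its partner of 15290 bp had 86.5 FPKM in the OA-exposed and 25.7 FPKM in the control library (log2 ratio 1.75, interval 1.70 to 1.80). These contigs are close in both level and ratio, and RSEM may have divided reads between them.

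The next highest in the control library lay closer to equality. A contig of 10474 bp had 69.5 FPKM in the OA-exposed and 73.1 FPKM in the control library (log2 ratio -0.07, interval -0.12 to -0.03). A singleton of 11073 bp had 71.3 FPKM in the OA-exposed and 53.9 FPKM in the control library (log2 ratio 0.40, interval 0.36 to 0.45). Of the 10 highest very long unigenes by FPKM, 9 were shared by the libraries. Spearman's rho between OA and control FPKM over the 89 unigenes was 0.86, and that between control FPKM and log2 ratio was -0.33, which shares the control value on both sides.

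The 3 longest unigenes differed among themselves. The longest, a singleton of 33781 bp, had 9.42 FPKM (3696 fragments) in the OA-exposed library and 4.15 FPKM (1621 fragments) in the control library, a log2 ratio of 1.18 (interval 1.09 to 1.26). All its fragments were whole counts, which is the form expected counts take when reads are not shared with another unigene. A contig of 22987 bp had 5.11 FPKM in the OA-exposed and 2.73 FPKM in the control library (log2 ratio 0.90, interval 0.77 to 1.04). The third, the singleton Unigene18222_All of 20254 bp, went the other way, with 0.28 FPKM (66 fragments) in the OA-exposed library and 0.41 FPKM (96 fragments) in the control library. Its log2 ratio of -0.55 had an interval of -1.03 to -0.08, the second lowest ratio among very long unigenes with at least 10 fragments in each library, and it did not reach 2-fold.

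The highest ratios were found in unigenes of low control abundance, which is partly built in, since the control value divides the ratio. CL4435.Contig1_All, of 11291 bp, had 2.81 FPKM (368 fragments) in the OA-exposed library and 0.35 FPKM (45 fragments) in the control library. This was 8.03-fold higher (log2 ratio 3.01, interval 2.57 to 3.50), the highest of the set by the ratio of FPKM. That rank did not hold on log2(FPKM + 1), as given below. CL3990.Contig3_All, of 10669 bp, had 8.49 FPKM (1048 fragments) in the OA-exposed library and 1.24 FPKM (152 fragments) in the control library, 6.85-fold higher (log2 ratio 2.78, interval 2.53 to 3.03). A contig of 16448 bp followed, with 4.33 FPKM in the OA-exposed and 0.79 FPKM in the control library (log2 ratio 2.45), then a singleton of 11178 bp, with 5.76 FPKM in the OA-exposed and 1.06 FPKM in the control library (log2 ratio 2.44). The singleton had whole counts in both libraries. The only unigene at least 2-fold lower was CL2008.Contig3_All, of 10335 bp, with 0.47 FPKM (57 fragments) in the OA-exposed library and 2.87 FPKM (341 fragments) in the control library (log2 ratio -2.61, interval -3.02 to -2.18). The counts of this contig, of CL3990.Contig3_All and of the contig of 16448 bp were not whole. The intervals leave out any error in dividing reads between unigenes.

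A ratio below 1 was found for 11 of the 89 unigenes, namely 3 singletons and 8 contigs, 7 of which shared a cluster with another very long contig. Of the 41 unigenes with at least 10 fragments and whole counts in both libraries, 25 were at least 2-fold higher and 0 at least 2-fold lower, with a median log2 ratio of 1.13. Of the 48 with divided counts, 17 were higher and 1 lower by at least 2-fold, with a median of 0.74. The 38 singletons with at least 10 fragments had a median of 1.09, with 21 higher and 0 lower. The 21 contigs that were the only very long one of their cluster had a median of 0.94, with 7 higher and 0 lower. The 30 contigs that shared a cluster had a median of 0.88, with 14 higher and 1 lower.

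Contigs of 1 cluster are related sequences, such as isoforms, alleles or paralogs, and 14 clusters held more than 1 very long contig, 12 with 2 and 2 with 3. In 5 of these clusters the contigs differed by less than 0.2 in log2 ratio, and in 5 they differed by 1 or more. The contigs of 1 cluster, of 15590 and 10267 bp, were both high, with log2 ratios of 2.05 and 1.997. In another, the contigs of 15902 and 14284 bp had log2 ratios of 1.26 and 1.24.

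In 4 clusters the contigs lay on opposite sides of equality. The cluster of CL2008.Contig3_All held 2 other very long contigs, of 10325 and 10379 bp, with log2 ratios of -0.18 and 0.42, and the 3 differed in length by little. Over all 6 contigs of that cluster the OA-exposed library had 962.0 and the control library 898.0 fragments, a log2 ratio of 0.09, so the 2-fold lower value belonged to the contig and not to the cluster. A pair of 14684 and 14606 bp had log2 ratios of -0.53 and 1.06, and a pair of 16777 and 14422 bp had -0.23 and 1.29. The pair of 10474 and 11088 bp lay close to equality, at -0.07 and 0.18. In other clusters the contigs were on 1 side of equality but far apart. Beside CL3990.Contig3_All, at 2.78, the contigs of 10719 and 10689 bp had log2 ratios of 0.71 and 0.86. The sum over the 4 contigs of that cluster had a log2 ratio of 1.54. The pair of 16585 and 16448 bp had log2 ratios of 0.43 and 2.45.

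**Figure D4:**
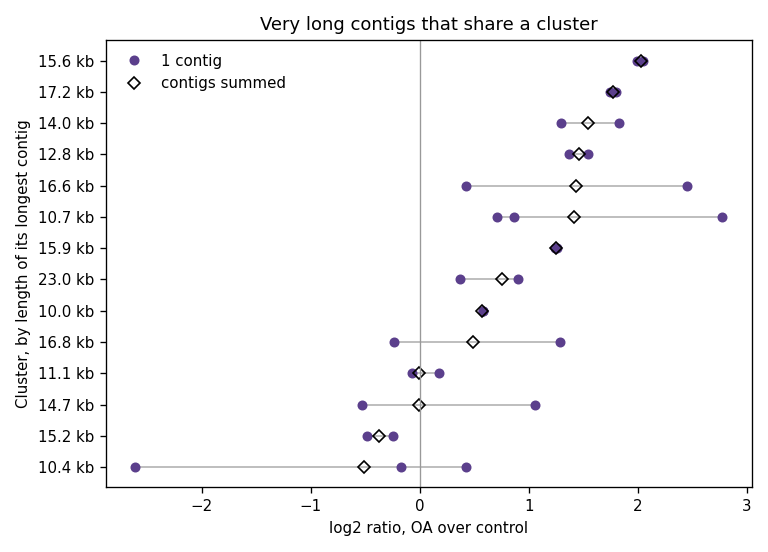
Log2 ratio, OA over control, of each very long contig (filled points) in the 14 clusters that hold more than 1, with their fragments summed (open diamonds); clusters are named by the length of their longest contig. The summed ratio lies above equality in 10 of the 14 clusters, and the widest gap, 3.03, is in the cluster at the bottom.

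Shorter contigs of the same clusters gave a comparison within related sequences. In 29 clusters the shorter contigs had at least 10 fragments together. These 58 contigs ran from 212 to 9998 bp, with a median of 3004 bp. With fragments summed per cluster, the median log2 ratio was 0.84 for the very long contigs and 0.84 for the shorter contigs, and the very long ones had the higher ratio in 16 of the 29 clusters. Both were above equality in 19 clusters and both below in 4. At least a 2-fold higher sum in the OA-exposed library was found in 10 clusters for the very long contigs and in 11 for the shorter contigs. The values of single clusters differed, with a median absolute difference of 0.53 on the log2 scale. Over all contigs of each of the 35 clusters, the sum was higher in the OA-exposed library in 31 and at least 2-fold higher in 15, with a median log2 ratio of 0.92.

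**Figure D5:**
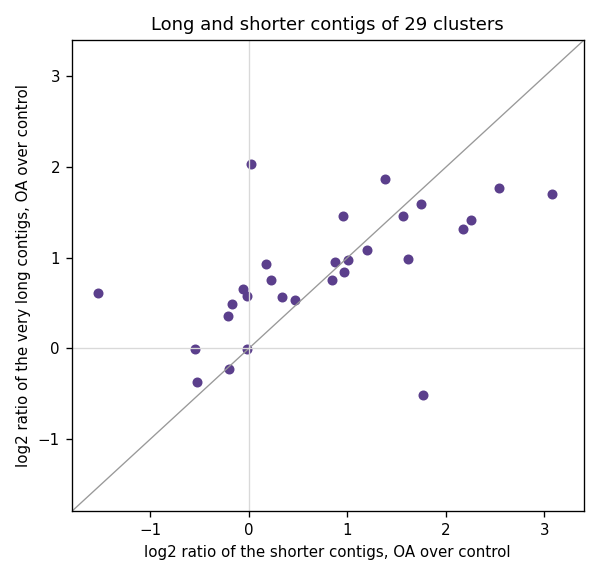
Log2 ratio, OA over control, of the summed very long contigs against that of the summed shorter contigs in each of 29 clusters; the diagonal marks equal ratios. The points lie on both sides of the diagonal, 16 above it, and 19 have both ratios above equality.

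The mean depth over the sequence differed among the very long unigenes. With paired reads of 100 bp, the fragments correspond to a median of 17.3-fold coverage in the OA-exposed library and 8.23-fold in the control library. Coverage was under 5-fold for 7 unigenes in the OA-exposed library and for 23 in the control library. It was under 1-fold for 2 unigenes in the OA-exposed library and for 3 in the control library. Among these were Unigene18222_All, at 0.65-fold in the OA-exposed and 0.95-fold in the control library, and CL4435.Contig1_All, at 0.80-fold in the control library. A singleton of 10301 bp had 0 fragments in the OA-exposed library and 3 in the control library, fewer than could cover its length, and no ratio is given for it.

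The 4 contigs of at least 10000 bp that belong to clusters of 8 or more contigs were left out by the rule. They had a median of 23.7 FPKM in the OA-exposed and 13.4 FPKM in the control library, and 1 of them, of 10137 bp, was at least 2-fold higher, with 41.0 FPKM in the OA-exposed and 12.7 FPKM in the control library. All 4 had divided counts in at least 1 library. The contig of 16113 bp was lower, with 6.51 FPKM in the OA-exposed and 11.3 FPKM in the control library.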

How the data were processed

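Per the study's methods, SOAPnuke was used to clean the reads, Trinity and TGICL to build the unigenes, and Bowtie and RSEM to map and quantify. The deposited files of the authors give, per library, expected counts (estimated fragments per unigene, which need not be whole when reads are shared between unigenes) and FPKM values. The authors' table of their own comparison, which holds fold changes and probabilities, was used only for identifiers and lengths. Expected counts were rounded to whole fragments for tests and intervals. A count was taken as whole within 0.005. In log2 ratios, an FPKM of 0 was set to 0.01. Library sizes were the column totals, and no normalization was added.

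With 1 library per group, the quasi-likelihood test of edgeR and the test of DESeq2 have no residual degrees of freedom. The Poisson probabilities were computed with scipy 1.17.1, doubled at the smaller tail to make them two-sided, and adjusted by the Benjamini-Hochberg method. The procedure was tested on simulated libraries. Alternatives used edgeR 4.0.16 and DESeq2 1.42.0 in R 4.3.3. The unigenes given by identifier were the 2 of highest and the 2 of lowest ratio among those with at least 10 fragments in each library. The others were given by length, by rules of length, abundance, detection or shared cluster, and the contig of 16448 bp and the singleton of 11178 bp after their values were seen. The set of unigenes and the comparisons were chosen with earlier results of these data known.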

Additional observations from a re-analysis of the deposited data

How the results depend on the processing

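Scaling by TMM factors lowered every log2 ratio by 0.105 and left 37 of 89 very long unigenes at least 2-fold higher and 1 lower, with a median of 0.87. The other scalings (median of ratios, upper quartile, totals without the most abundant unigene) moved ratios by less. On log2(FPKM + 1) the median was 0.82, and 33 were at least 2-fold higher and 1 lower. On this scale CL4435.Contig1_All fell from 3.01 to 1.497, below CL3990.Contig3_All, which fell from 2.78 to 2.08. The value of CL2008.Contig3_All went from -2.61 to -1.397, and that of Unigene18222_All from -0.55 to -0.14. With a minimum of 12000 bp the median log2 ratio was 1.21, and 25 were higher and 0 lower, also under the Poisson test. These were 17 of the 26 of 12000 to 15000 bp and 8 of the 16 of 15000 bp and over. With singletons only, 21 of 38 (55.3%) were higher and 0 lower under either rule, against 47.2% higher of all 89. With whole counts only, an alternative chosen after seeing the data, 25 of 41 (61.0%) were higher and 0 lower. Without a filter on low counts, 2 of the 90 were lower, against 23.7% of all unigenes. In edgeR's exact test with an assumed coefficient of variation of 0.1, 42 were higher and 1 lower. With 0.2, 6 were higher and 1 lower, and with 0.4, 0 were higher and 0 lower. For these settings of the exact test no share over all unigenes is given. A fold limit of 1.5 gave 62 of the 89 higher and 1 lower. No share over all unigenes is given for this limit or for TMM factors, nor for all singletons or all unigenes with whole counts. Under the main rule, 18.6% of all unigenes with at least 10 fragments were at least 2-fold higher and 15.5% at least 2-fold lower. The share of fragments was 1.81% in the OA-exposed and 1.08% in the control library without the most abundant unigene in the total, 1.09% and 0.579% with a minimum of 12000 bp, 0.726% and 0.477% for singletons, 1.72% and 1.002% with no limit on cluster size, and 1.07% and 0.657% without the 3 unigenes with the most fragments (added after seeing the data). In every one of these the OA share was the higher. In total, 125 alternative values were computed. They covered the counts, the median over the very long unigenes and its difference from the median of all unigenes. They also covered the shares of fragments and the ratios of the 4 given by identifier. None of the medians, differences or ratios changed sign, which counts and shares cannot do. A change of library scaling cannot move the difference of medians. Of the 125 values, 95 kept their value within counting error or 1.5 times the count. For the shares, 0 of 5 did so in each library. The medians of shorter unigenes had no such alternatives, and that of 300 to 1000 bp was -0.56 with at least 200 fragments and 0.12 with at least 10. No paired analysis was possible because each group has 1 library, and no replicate could be left out.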

Other observations

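Among well-covered short unigenes, lower values were the more frequent. Of the 781 unigenes of 300 to under 1000 bp with at least 200 fragments, 212 (27.1%) were at least 2-fold lower and 64 (8.19%) at least 2-fold higher in the OA-exposed library. At the minimum of 10 fragments this was not so, since 2662 of 14780 (18.0%) were at least 2-fold lower and 3399 (23.0%) at least 2-fold higher. As a group, the unigenes of 300 to under 1000 bp with at least 10 fragments took 10.6% of the fragments in the OA-exposed library and 15.4% in the control library. The shares did not follow length in order. Those of 3000 to 5000 bp took 24.2% in the OA-exposed and 18.6% in the control library. In the same order, those of 5000 to 8000 bp took 20.8% and 20.9%, and those of 8000 to 10000 bp 3.73% and 4.84%. No explanation of the relation to length was tested.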
